A study of Mus musculus with 3 samples.

Results

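Tissue-activated monocytes are classical monocytes in which transcripts of activation genes have drawn level with, or overtaken, those typical of monocytes in the blood. Here 973 of 30684 kept cells from 3 mouse livers met that description, 69 of 10044 in the engineered MSC library, 454 of 10203 in the native MSC library and 450 of 10437 in the PBS library. A cell was first gated as a classical monocyte. It had to hold at least 3 of the 7 transcripts Ly6c2, Ccr2, Chil3, F13a1, Vcan, Fn1 and Plac8, at least 1 count of Csf1r, and at most 2 counts of C1qa, C1qb and C1qc together. It also had to hold fewer than 3 of the 6 patrolling monocyte transcripts Ace, Treml4, Spn, Cd300e, Eno3 and Adgre4, and no Cd209a, Cd79a or Cd3e. Among the 3129 gated cells, those whose counts of Thbs1, Cd86, Ccl2, Gab1 and Pid1 together were at least those of Vcan, Chil3, Plac8 and Hopx together were called tissue-activated. The other 2156 are called blood-like. The cells were thus chosen by their counts of these genes, which are given as a description, also where a gene list below holds one of them.

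All 3 mice had been given paracetamol (acetaminophen, APAP) at 500 mg/kg and an infusion 6 h later, and their livers were taken on day 4. The engineered MSC mouse received mesenchymal stromal cells that carried bispecific polyvalent peptides, the native MSC mouse received mesenchymal stromal cells without them, and the PBS mouse received the buffer alone. Each group was 1 mouse and 1 library, no mouse without APAP was included, and strain, sex, age and the source of the stromal cells are not given in the sources used here. A difference between libraries therefore cannot be told apart from a difference between mice, intervals below cover counting error only, and no test between groups was possible.

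Classical monocytes leave the bone marrow through the receptor Ccr2 and enter damaged liver along gradients of its ligands Ccl2 and Ccl7. In the tissue they lose the surface pattern of blood monocytes, release chemokines that call in further monocytes and neutrophils, lay down clotting and matrix proteins, and later turn into macrophages that clear dead hepatocytes. Thbs1 encodes thrombospondin 1, an adhesive matrix protein that binds Cd36 and Cd47 and can activate latent TGF-beta, Cd86 is a costimulatory ligand for T cells, Gab1 is an adaptor beneath growth factor and cytokine receptors, and Pid1 is an adaptor linked to insulin signalling.

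Promoter letters of 8 chemokine and interferon genes are shown because the medians of these 2 gene lists stood on opposite sides of the PBS level in both MSC libraries. The sequences are the 150 bases before the start of each gene, 5′ to 3′ on the strand of the gene, from RefSeq on GRCm38.p6, which is not the build the counts were made on. Capitals in the 5 CXC chemokine genes, which lie close together on chromosome 5, mark GGG, any 2 bases and TTTCC in a row on either strand, 1 spelling of the site bound by NF-kappaB. Cxcl1 lies at chr5:90891095-90891244 (+), Cxcl2 at chr5:90903749-90903898 (+), Cxcl3 at chr5:90785951-90786100 (+), Pf4 at chr5:90772285-90772434 (+) and Ppbp at chr5:90768368-90768517 (+).
Cxcl1: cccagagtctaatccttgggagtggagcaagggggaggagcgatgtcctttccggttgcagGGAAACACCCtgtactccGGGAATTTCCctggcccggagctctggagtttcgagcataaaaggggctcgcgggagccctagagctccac
Cxcl2: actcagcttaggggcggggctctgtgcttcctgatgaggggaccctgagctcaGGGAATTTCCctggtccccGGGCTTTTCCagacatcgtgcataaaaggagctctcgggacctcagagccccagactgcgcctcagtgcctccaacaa
Cxcl3: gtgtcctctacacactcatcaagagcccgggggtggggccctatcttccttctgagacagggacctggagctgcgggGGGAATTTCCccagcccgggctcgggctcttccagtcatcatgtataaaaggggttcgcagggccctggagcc
Pf4: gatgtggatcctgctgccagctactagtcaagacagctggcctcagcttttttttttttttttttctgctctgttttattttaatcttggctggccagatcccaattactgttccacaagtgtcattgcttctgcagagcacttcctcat
Ppbp: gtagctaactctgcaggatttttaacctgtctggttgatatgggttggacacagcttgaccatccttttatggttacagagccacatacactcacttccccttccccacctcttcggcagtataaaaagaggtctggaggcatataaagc
Cxcl1 and Cxcl2 each held 2 matches, Cxcl3 held 1, and Pf4 and Ppbp held 0. Capitals in the 3 interferon genes mark TTTC, any 2 bases and TTTC in a row on either strand, 1 spelling of the interferon-stimulated response element, and in Isg15 they cover 3 overlapping matches. Isg15 lies at chr4:156200819-156200968 (-), Rsad2 at chr12:26456453-26456602 (-) and Ifit1 at chr19:34640739-34640888 (+).
Isg15: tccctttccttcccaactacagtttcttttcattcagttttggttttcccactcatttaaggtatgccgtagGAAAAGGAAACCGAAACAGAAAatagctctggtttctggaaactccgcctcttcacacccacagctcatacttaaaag
Rsad2: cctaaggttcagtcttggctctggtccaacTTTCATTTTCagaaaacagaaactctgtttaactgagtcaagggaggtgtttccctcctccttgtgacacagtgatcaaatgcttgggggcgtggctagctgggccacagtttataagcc
Ifit1: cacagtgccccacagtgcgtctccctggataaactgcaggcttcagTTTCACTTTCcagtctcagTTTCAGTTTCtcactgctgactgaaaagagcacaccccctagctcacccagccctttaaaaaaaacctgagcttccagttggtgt
Over windows from 250 bases before to 50 after the start, the first of these spellings was found in 535 of 32851 promoters (1.63%). It was found in 3 of the 8 CXC chemokine genes that the promoter table holds and in 1 of the 7 CC chemokine genes, Ccl9. The spelling of the interferon site was found in 1131 promoters (3.44%), and in 6 of the 10 interferon genes that the table holds. It was also found in 2 of the 8 CXC chemokine genes, Cxcl10 and Cxcl14. A spelling of the antioxidant response site was likewise found in 6 of the 10 interferon genes, against 12.4% of all promoters. In all, 7 spellings were searched, and those shown were chosen with their matches known. A match describes letters and not binding.

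The libraries held 11028 (engineered MSC), 11479 (native MSC) and 10739 (PBS) barcodes. Kept cells had a median of 3845, 6088 and 5959 UMIs, the unique molecules counted per cell. Tissue-activated cells had higher medians than kept cells at large, 10360 UMIs in the engineered MSC, 9156 in the native MSC and 6632 in the PBS library. Macrophages with C1q counts of at least 10 were deeper still, at 13990, 14370 and 11580. Together the tissue-activated cells held 788524, 4276709 and 2971584 UMIs in that order of libraries. This sets the precision of the levels below, given as CPM, the UMIs of a gene scaled to all UMIs of these cells. Blood-like cells had medians of 7702, 8484 and 5789 UMIs, and B cells, which serve as background for free RNA in the droplets, had 2956, 2410 and 2313. From 39 to 46 barcodes were shared between each pair of libraries, and 0 of these were tissue-activated cells. Putative doublets were left in for the main values and removed with Scrublet as an alternative.

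The tissue-activated cells were a much smaller share of the liver cells in the engineered MSC library than in the other libraries. They made up 0.687% of kept cells in the engineered MSC library (exact binomial 95% interval 0.535% to 0.869%), 4.45% in the native MSC library (4.06% to 4.87%) and 4.31% in the PBS library (3.93% to 4.72%). The engineered MSC share was 6.28-fold lower than the PBS share (4.86 to 8.21) and 6.48-fold lower than the native MSC share (5.02 to 8.47), and the native MSC share was 1.03 times the PBS share (0.904 to 1.18). Classical monocytes of both kinds numbered 182, 1928 and 1019 in the engineered MSC, native MSC and PBS libraries. Among them the tissue-activated share was 37.9% (30.8% to 45.4%), 23.5% (21.7% to 25.5%) and 44.2% (41.1% to 47.3%). On this base the engineered MSC share was 0.859 times the PBS share (0.656 to 1.11), and the native MSC share was 1.88-fold lower than the PBS share (1.64 to 2.14). The engineered MSC library thus had few classical monocytes of either kind, and the native MSC library held 454 tissue-activated cells beside 1474 blood-like ones, a share of kept cells that moved in both directions with the gate.

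**Figure D1:**
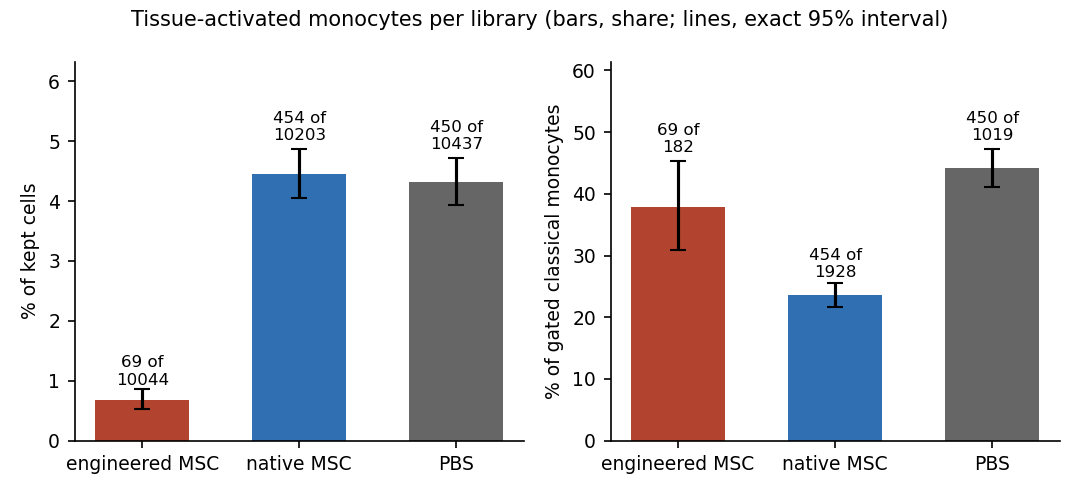
Share of tissue-activated monocytes in each library, in percent of kept cells (left) and in percent of gated classical monocytes (right). Bars start at 0, lines are exact binomial 95% intervals, and the engineered MSC library stands at 0.687% of kept cells beside 4.45% (native MSC) and 4.31% (PBS).

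These shares depend on how the gate treats free RNA and depth. With no count of C1q allowed, the native MSC library kept 185 tissue-activated cells and the PBS library 111, and the share of kept cells was 1.18 lower on the log2 scale in engineered MSC than in PBS cells and 0.77 higher in native MSC than in PBS cells. B cells, which make no C1qa, held 25.9, 31.5 and 165 CPM of it in the engineered MSC, native MSC and PBS libraries. The rule was also applied to 2000 UMIs drawn from each kept barcode that held at least that many. Then 35 cells met it in the engineered MSC library and 263 in the native MSC library. The log2 share ratios to PBS, taken of these deeper barcodes only, were -3.54 (engineered MSC) and -0.79 (native MSC). The native MSC share thus stood above or below the PBS share depending on the setting. The engineered MSC share was lower than the PBS share under each of the settings tried.

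The cutoff ran through a continuous spread of cells. Of the tissue-activated cells, 13 of 69 (engineered MSC), 90 of 454 (native MSC) and 100 of 450 (PBS) lay at or up to 5 counts above equality of the 2 sums, with median tissue sums of 7, 24 and 22 and median blood sums of 3, 22.5 and 18.5. Just outside it, 7, 125 and 69 blood-like cells lay 1 to 5 counts below equality, with median tissue sums of 18, 13 and 16 and median blood sums of 21, 17 and 18. Over all tissue-activated cells the median tissue sum was 61, 56.5 and 38 counts, beside a median blood sum of 27, 29 and 19. Their lowest tissue sums were 0, 1 and 1, and 1 engineered MSC cell was a member with 0 counts in both sums. Thbs1 was the largest of the 5 tissue genes in 55.1% of engineered MSC, 53.3% of native MSC and 59.3% of PBS cells. Pid1 led in 18.8%, 22.2% and 24.2%, Ccl2 in 13%, 17.0% and 7.56%, and Cd86 in 4.35%, 3.52% and 5.33%.

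**Figure D2:**
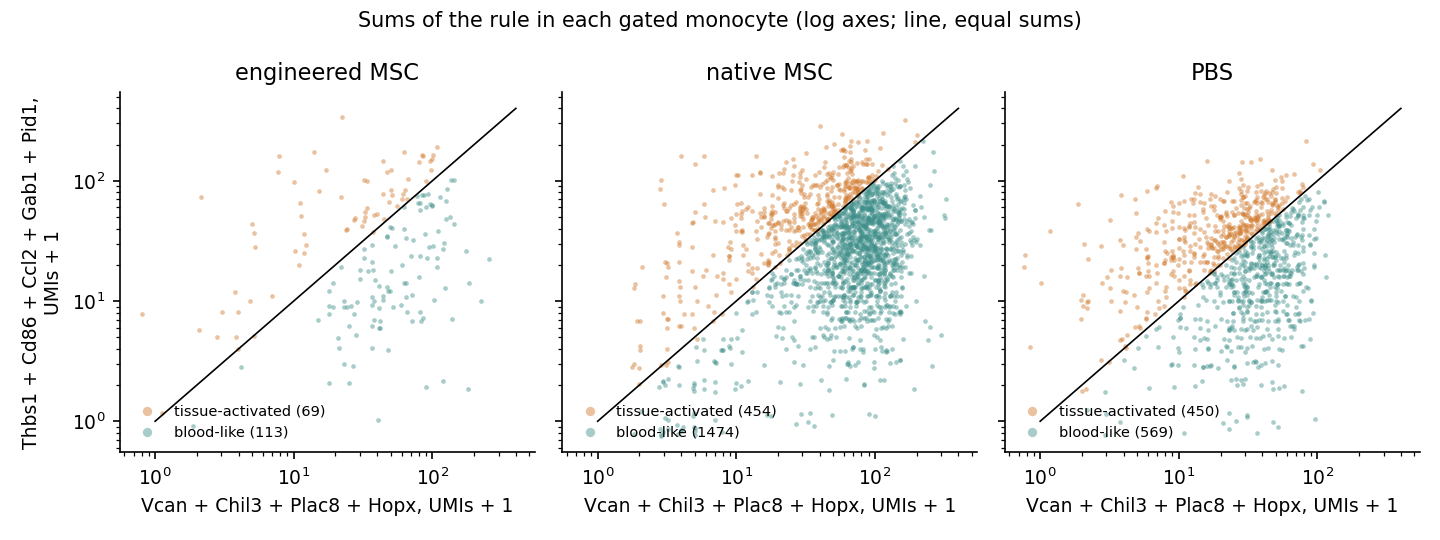
Summed counts of the 5 tissue genes against those of the 4 blood genes in each gated monocyte, 1 panel per library, both axes log10 of the sum plus 1 with slight jitter. The line marks equal sums, and 69 (engineered MSC), 454 (native MSC) and 450 (PBS) cells lie on or above it.

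Thbs1 was the most abundant of the 5 tissue genes in each library and differed little between them. It stood at 3112 CPM in engineered MSC, 3224 CPM in native MSC and 3028 CPM in PBS cells, so that the engineered MSC level was 1.03 times the PBS level (0.983 to 1.07). Ccl2, the main ligand of Ccr2, stood at 1423, 1613 and 669 CPM and was 2.13 times as high in engineered MSC as in PBS cells (1.98 to 2.29) and 2.41 times as high in native MSC as in PBS cells (2.29 to 2.54). It was thus near its native MSC level in the engineered MSC library. In the engineered MSC library 290 of 1122 Ccl2 UMIs came from 1 barcode. The engineered MSC ratio was 1.67 without the barcodes richest in Ccl2 and 1.05 with the rule on 2000 UMIs per barcode, and the native MSC ratio was 4.07 with no C1q allowed. Cd86 stood at 455 CPM in engineered MSC, 718 CPM in native MSC and 849 CPM in PBS cells and was 1.86-fold lower in engineered MSC than in PBS cells (1.67 to 2.09). That ratio was 0.834 with the rule on 2000 UMIs. Gab1 stood at 335, 313 and 278 CPM and Pid1 at 1163, 1372 and 1605 CPM in the same order. Vcan, a matrix proteoglycan on the blood side of the rule, stood at 322, 308 and 153 CPM.

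The markers in the name of these cells are the genes that chose them, so their levels describe the cells and do not check the name. Fn1, which encodes fibronectin and marks monocytes that lay down matrix, stood at 1538 CPM in engineered MSC, 1567 CPM in native MSC and 2492 CPM in PBS cells. It was a gate gene that both kinds of monocyte could carry, and blood-like cells held 1104, 1674 and 1812 CPM, so Fn1 did not separate the classes in the native MSC library. Cd86 was 1.11, 1.33 and 1.89 times its blood-like level, a small gap in the engineered MSC library. Thbs1 was 2.83, 2.13 and 2.42 times, and Ccl2 6.48, 4.02 and 3.03 times the blood-like level. After thinning to 2000 UMIs, which left 67, 444 and 431 cells, Thbs1 was detected in 74.6%, 81.8% and 84.9% of tissue-activated cells, against 1.28%, 10.2% and 7.93% of B cells. Before thinning it was detected in 79.7%, 91.4% and 90.0%. Ly6c2, which marks classical monocytes fresh from the blood, stood at 180 CPM in engineered MSC, 134 CPM in native MSC and 224 CPM in PBS cells, against 959, 435 and 441 CPM in blood-like cells.

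**Figure D3:**
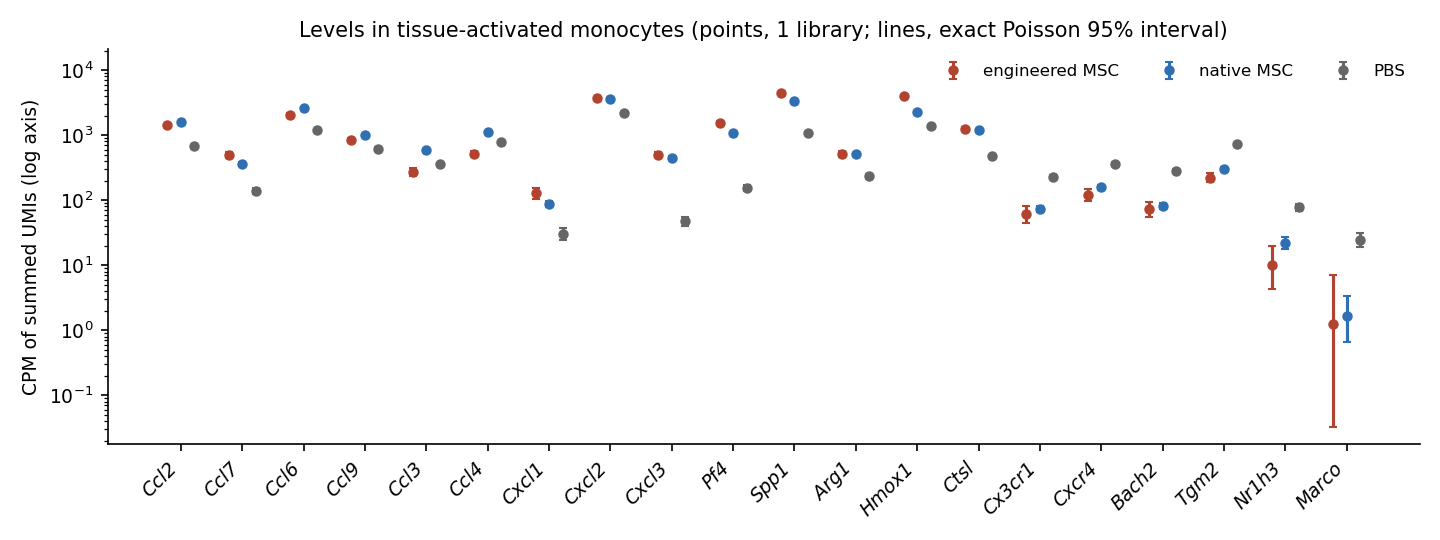
Levels of 20 genes in tissue-activated cells of the engineered MSC, native MSC and PBS libraries, in CPM on a log axis, with exact Poisson 95% intervals. Cx3cr1 lies lower and Pf4 higher in both MSC libraries than in the PBS library.

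Among the ligands, Ccl2, Ccl7 and Ccl12, CC chemokines that bind Ccr2, were counted higher in both MSC libraries than in the PBS library, though for the engineered MSC cells Ccl2 and Ccl7 were at 1.05 and 0.797 times the PBS level with the rule on 2000 UMIs. Of the 12 genes of the CC chemokine list, 9 had at least 20 UMIs in the engineered MSC and PBS cells together, and 3 of these were at least 2-fold higher and 0 at least 2-fold lower in engineered MSC cells. Of all 9644 genes with that many UMIs, 10.4% were at least 2-fold higher and 6.24% at least 2-fold lower, 1003 and 602 genes. That balance turned with the rule on 2000 UMIs, which gave 356 higher and 1231 lower, and 395 were higher with mixed barcodes left out, so the counts of higher and lower list members for the engineered MSC cells depend on the same choices. In native MSC against PBS cells 4 of 9 were at least 2-fold higher and 0 lower, beside 5.7% higher and 6.27% lower among 10640 genes. The median log2 ratio of the list was 0.44 for engineered MSC and 0.81 for native MSC against PBS cells, beside -0.04 and -0.16 over all genes, and the engineered MSC median was -0.06 with the rule on 2000 UMIs. Ccl2 is itself a gene of the rule. Without it 2 of 8 (engineered MSC) and 3 of 8 (native MSC) were at least 2-fold higher than in PBS cells, with medians of 0.29 and 0.78.

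Ccl7, also a ligand of Ccr2, stood at 490 CPM in engineered MSC, 363 CPM in native MSC and 137 CPM in PBS cells, 3.56-fold (3.09 to 4.11) and 2.64-fold (2.37 to 2.95) above PBS. The value leaned on few cells, since 1 barcode held 199 of 386 Ccl7 UMIs in the engineered MSC, 99 of 1551 in the native MSC and 141 of 408 in the PBS library. Without each library's richest barcode for the gene the ratios were 2.64 (engineered MSC) and 3.78 (native MSC), and with the rule on 2000 UMIs the engineered MSC ratio was 0.797, below equality, while with no C1q allowed the native MSC ratio was 4.00. Ccl12, another Ccr2 ligand of mice, had 12, 69 and 9 UMIs, or 15.2, 16.1 and 3.03 CPM. Ccl6 and Ccl9, chemokines of mouse myeloid cells that bind Ccr1, stood at 2062, 2591 and 1198 CPM and at 836, 1015 and 617 CPM. Ccl3 and Ccl4, the macrophage inflammatory proteins, followed another order. Ccl3 stood at 273 CPM in engineered MSC, 594 CPM in native MSC and 354 CPM in PBS cells, and Ccl4 at 521, 1098 and 786 CPM. Both were lower in engineered MSC than in native MSC cells, by 2.18-fold for Ccl3 (1.89 to 2.52) and 2.11-fold for Ccl4 (1.90 to 2.33). Ccl24, an eotaxin that binds Ccr3, stood at 235, 229 and 227 CPM, and its engineered MSC ratio to PBS of 1.04 was 0.559 with the rule on 2000 UMIs. Ccl8, Ccl17 and Ccl22 had at most 5 UMIs in any library.

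Ccl2 and Ccl7 were held by fewer cells than Thbs1, the gene that most often led the tissue sum of the rule. The tenth of cells richest in Ccl2 held 62.8% of its UMIs in the engineered MSC library (7 cells), 54.1% in the native MSC library (46 cells) and 68.5% in the PBS library (45 cells). For Ccl7 these shares were 95.3%, 78.4% and 93.4%, and for Thbs1 they were 34.5%, 31.8% and 28.4%. At 2000 UMIs per cell Ccl2 was detected in 41.8% of engineered MSC, 56.8% of native MSC and 33.2% of PBS cells, against 1.42%, 5.66% and 5.38% of B cells. Without thinning it was detected in 58.0%, 74.4% and 52.0%. Ccl7 was found more often in cells with Ccl2 than in cells without it, although most cells with Ccl2 held no Ccl7. At equal depth Ccl7 was found in 35.7% of cells with Ccl2 and 0 of 39 cells without it in the engineered MSC library. It was found in 35.7% and 10.9% in the native MSC library and in 14.0% and 1.74% in the PBS library. As counted, the shares with Ccl7 were 37.5% and 0% in engineered MSC, 41.7% and 13.8% in native MSC, and 23.9% and 7.41% in PBS cells.

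The CXC chemokines, most of which call in neutrophils, held wide gaps. Of 9 list members with enough UMIs, 5 were at least 2-fold higher and 0 lower in engineered MSC than in PBS cells. Of 8 in native MSC against PBS cells 4 were higher and 2 lower. Among all genes 10.4% were higher and 6.24% lower (engineered MSC), and 5.7% and 6.27% (native MSC). The list's median log2 ratio was 2.10 for engineered MSC and 1.14 for native MSC cells. The engineered MSC median was 0.81 with each gene's richest barcode left out of each library and 0.74 with the rule on 2000 UMIs. Cxcl3, a ligand of the neutrophil receptor Cxcr2, stood at 504 CPM in engineered MSC, 452 CPM in native MSC and 47.5 CPM in PBS cells, 10.6 times (8.73 to 12.9) and 9.54 times (8.03 to 11.4) the PBS level. With the rule on 2000 UMIs these ratios were 3.52 and 5.40. Cxcl2, also a Cxcr2 ligand, was abundant in all 3 libraries at 3687, 3642 and 2203 CPM and stood 1.67 and 1.65 times above PBS. Cxcl1, which binds the same receptor, stood at 128, 88.4 and 29.9 CPM. Of its 101 UMIs in the engineered MSC cells 69 came from 1 barcode, and the engineered MSC ratio of 4.28 was 1.61 without the barcodes richest in Cxcl1 and 1.54 with the rule on 2000 UMIs. The native MSC ratio of 2.95 was 1.19 with no C1q allowed.

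Pf4 and Ppbp, platelet chemokines that some macrophages also make, showed the same order as Cxcl3. Pf4 stood at 1559 CPM in engineered MSC, 1082 CPM in native MSC and 154 CPM in PBS cells, 10.1 times (9.08 to 11.3) and 7.02 times (6.37 to 7.74) the PBS level. It was detected at 2000 UMIs in 34.3%, 33.3% and 11.8% of cells, against 4.52%, 8.30% and 9.35% of B cells, and in 49.3%, 49.6% and 25.6% of cells as counted. The PBS share lay near that of B cells. Ppbp had 105, 525 and 13 UMIs, or 133, 123 and 4.38 CPM. Its ratios to PBS were 30.4 in engineered MSC and 28.1 in native MSC cells. With the barcode richest in Ppbp left out of each library they were 109 and 104, and with no C1q allowed 124 and 179. The PBS cells held 13 Ppbp UMIs as counted and no more than that under these settings, so the size of these ratios is uncertain. The Pf4 ratio of native MSC to PBS was 12 with the rule on 2000 UMIs. The 6 platelet markers, of which Pf4 and Ppbp are a pair, summed to 1694 CPM in engineered MSC, 1206 CPM in native MSC and 162 CPM in PBS cells. Of the others, Itga2b had 0, 3 and 3 UMIs, Gp9 0, 1 and 0, Gp1ba 0, 0 and 0, and Itgb3 2, 2 and 8. Barcodes with at least 0.5% of their UMIs from platelet markers numbered 7, 34 and 2. They were not among the mixed barcodes left out below, since Pf4 itself is in that list, and the part of platelets in the Pf4 and Ppbp levels was not tested further.

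Cxcl10, an interferon-induced ligand for T cells, ran the other way in native MSC cells. It stood at 49.5 CPM in engineered MSC, 10.3 CPM in native MSC and 61.2 CPM in PBS cells, and 89 of its 182 PBS UMIs came from 1 barcode. The native MSC ratio to PBS was 0.168 (0.118 to 0.235), 0.239 without the barcodes richest in Cxcl10, 0.741 with no C1q allowed, and 2.57 with the rule on 2000 UMIs. The engineered MSC ratio of 0.807 was 0.216 with mixed barcodes left out and 4.04 with no C1q allowed, so no order of the libraries is given for Cxcl10.

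Neutrophil transcripts moved with the CXC chemokines, and their part in this difference was not tested beyond leaving out mixed barcodes. The 8 neutrophil markers summed to 2441 CPM in engineered MSC, 3309 CPM in native MSC and 258 CPM in PBS cells, and 86.9% of the engineered MSC sum came from 1 barcode. Barcodes with at least 0.5% of their UMIs from neutrophil markers numbered 1, 25 and 5. Barcodes mixed by this measure with any of 7 cell types, platelets not among them, numbered 19 of 69, 48 of 454 and 12 of 450. With all of these left out Cxcl3 was 14.0 times (engineered MSC) and 9.79 times (native MSC) its PBS level, Cxcl2 2.12 and 1.56 times, and Pf4 11.4 and 7.60 times. Neutrophils of the same libraries held 637, 733 and 257 CPM of Cxcl3 and 21.7, 129 and 48.2 CPM of Pf4.

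Among the receptors, Cx3cr1, Cxcr4 and Itgal were lower in both MSC libraries, and most of the list lay within 2-fold of PBS. Of 15 measured genes of receptors and homing, 5 were at least 2-fold lower and 1 at least 2-fold higher in engineered MSC than in PBS cells, and 3 lower and 1 higher in native MSC than in PBS cells. The median log2 ratio was -0.20 and 0.04, and 5 and 8 of the 15 stood above PBS. Without the gate gene Ccr2, 4 of 14 and 3 of 14 were at least 2-fold lower. Of all genes, 6.24% and 6.27% were that much lower, and 10.4% and 5.7% that much higher. Cx3cr1, the fractalkine receptor that marks patrolling and maturing monocytes, stood at 60.9 CPM in engineered MSC, 73.7 CPM in native MSC and 225 CPM in PBS cells. It was 3.70-fold lower than PBS in engineered MSC (2.76 to 5.07) and 3.06-fold lower in native MSC cells (2.67 to 3.51). At 2000 UMIs it was detected in 10.4%, 10.6% and 32.9% of cells, against 0.202%, 0.377% and 1.98% of B cells, and as counted in 24.6%, 30.0% and 60.4%. Cxcr4, the receptor that retains cells in bone marrow, stood at 120, 157 and 359 CPM, 2.98-fold and 2.28-fold lower than PBS, though the engineered MSC ratio of 0.335 was 0.626 with the rule on 2000 UMIs. Itgal, a chain of the integrin LFA-1, stood at 100, 108 and 244 CPM, 2.44-fold and 2.26-fold lower. Ccr2, a gate gene, stood at 429, 611 and 879 CPM, and its engineered MSC ratio of 0.488 was 0.776 with the rule on 2000 UMIs. Fpr1, a receptor for formyl peptides, stood at 27.9, 36.0 and 9.76 CPM.

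The inflammatory cytokine list lay near the genes at large. Of 12 measured inflammatory cytokines and mediators, 1 was at least 2-fold higher and 1 lower in engineered MSC than in PBS cells, with a median log2 ratio of -0.29, and 1 higher and 0 lower in native MSC than in PBS cells, with a median of 0.01, beside 10.4% higher and 6.24% lower (engineered MSC) and 5.7% and 6.27% (native MSC) over all genes. Il1b, the main cytokine made by these cells, stood at 1209 CPM in engineered MSC, 1742 CPM in native MSC and 1328 CPM in PBS cells. Il1rn, which encodes the antagonist of the IL-1 receptor, stood at 26.6, 46.8 and 76.7 CPM and was 2.88-fold (1.84 to 4.75) and 1.64-fold (1.35 to 1.99) lower than PBS. The engineered MSC ratio for Il1rn, 0.347, was 0.0402 with the rule on 2000 UMIs and 0.584 with each cell counted alike. Osm, a cytokine read by hepatocytes and stellate cells, stood at 237, 317 and 368 CPM, Tnf at 27.9, 42.3 and 50.5 CPM, and Ptgs2, the inducible cyclooxygenase, at 307, 301 and 235 CPM. Of 16 NF-kappaB targets and inhibitors only Traf1, a signalling adaptor, was past 2-fold, at 16.5, 13.1 and 40.4 CPM.

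Of 10 costimulatory and checkpoint ligands, which T cells read, 1 was at least 2-fold higher and 2 lower in engineered MSC than in PBS cells. In native MSC against PBS cells 0 were higher and 2 lower. Without Cd86, a gene of the rule, both pairs of counts were the same, among 9 genes. Over all genes 10.4% were higher and 6.24% lower (engineered MSC), and 5.7% and 6.27% (native MSC). Cd80, a costimulatory ligand like Cd86, stood at 139 CPM in engineered MSC, 226 CPM in native MSC and 211 CPM in PBS cells, and Cd274, the checkpoint ligand PD-L1, at 98.9, 64.3 and 92.2 CPM. Of the 7 MHC class II genes 1 was at least 2-fold lower in engineered MSC than in PBS cells and 0 in native MSC than in PBS cells. H2-Aa stood at 427, 403 and 533 CPM and was detected at 2000 UMIs in 10.4%, 8.33% and 20.6% of cells, against 96.7%, 96.2% and 95.5% of B cells (21.7%, 16.3% and 31.8% of tissue-activated cells as counted). Single barcodes held 180, 162 and 176 of its UMIs. With the rule on 2000 UMIs the H2-Aa ratio of native MSC to PBS cells was 0.317 and that of engineered MSC to PBS cells 0.515. With the barcode richest in H2-Aa left out of each library the engineered MSC ratio was 0.466.

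Genes of clotting and matrix, the group to which Thbs1 and Fn1 belong, did not move together. Of 14 measured genes 2 were at least 2-fold higher and 2 lower in engineered MSC than in PBS cells. Of 15 in native MSC against PBS cells 2 were higher and 1 lower. For all genes these shares were 10.4% and 6.24% (engineered MSC), and 5.7% and 6.27% (native MSC). Thbs1, Fn1, F13a1 and Vcan are genes of the rule. Without them 1 of 10 was higher and 2 lower (engineered MSC), and 1 of 11 higher and 1 lower (native MSC). Tgm2, a transglutaminase that cross-links matrix, stood at 222 CPM in engineered MSC, 303 CPM in native MSC and 726 CPM in PBS cells, 3.27-fold (2.80 to 3.84) and 2.40-fold (2.23 to 2.57) lower than PBS. Tgfbi, a matrix protein induced by TGF-beta, stood at 443, 441 and 832 CPM, and Fn1 was likewise lower in both MSC libraries. F13a1, the clotting factor XIII chain that stabilises fibrin, stood at 860, 976 and 840 CPM, and Thbd, which encodes thrombomodulin, at 97.7, 75.1 and 47.8 CPM. Of the partners of thrombospondin 1, Cd36 stood at 430, 625 and 365 CPM, and Itgav, an integrin chain, at 132, 180 and 319 CPM. The engineered MSC ratio for Itgav, 0.413, was 0.763 with the rule on 2000 UMIs.

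Matrix proteases had among the largest ratios. Mmp9, a gelatinase, stood at 129 CPM in engineered MSC, 114 CPM in native MSC and 6.73 CPM in PBS cells, 19.2 times (11.8 to 32.8) and 16.9 times (10.8 to 27.9) the PBS level. Mmp9 is also a neutrophil marker, and the neutrophils of these libraries held 954, 1346 and 1253 CPM. With mixed barcodes left out the ratios were 50.0 and 34.8, with Scrublet doublets removed 44.2 and 36.6, with no C1q allowed 95.5 and 75.9, and with the rule on 2000 UMIs 4.33 and 10.1. The native MSC ratio was 25.7 with the barcode richest in Mmp9 left out of each library. Mmp8, a collagenase of neutrophils and monocytes, stood at 176, 137 and 55.9 CPM. Mmp14, a membrane-bound protease, ran the other way at 16.5, 11.9 and 59.9 CPM, 3.63-fold (2.07 to 6.96) and 5.02-fold (3.66 to 7) lower than PBS. The engineered MSC ratio for Mmp14, 0.275, was 0.0888 with the rule on 2000 UMIs and 0.0878 with mixed barcodes left out. Of 11 measured proteases and inhibitors 5 were at least 2-fold higher and 1 lower in engineered MSC than in PBS cells. Of 12 in native MSC against PBS cells 2 were higher and 6 lower. Among all genes 10.4% were higher and 6.24% lower (engineered MSC), and 5.7% and 6.27% (native MSC). Timp3, an inhibitor of metalloproteinases, stood at 100 CPM in engineered MSC, 3.27 CPM in native MSC and 26.9 CPM in PBS cells, and Adamts1, a secreted protease, at 55.8, 3.04 and 9.09 CPM. Endothelial markers moved with both. The 6 markers summed to 259, 22.9 and 171 CPM, and 6 of 6 were at least 2-fold lower in native MSC than in PBS cells, with a median log2 ratio of -3.01. Endothelial cells of these libraries held 1242, 854 and 882 CPM of Timp3, and the part of such cells in these counts was not tested beyond the mixed barcodes. With those left out the native MSC ratio of Timp3, 0.122, was 0.402, and that of Adamts1, 0.335, was 0.128.

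Genes of haem, iron and oxidative stress stood higher in the engineered MSC cells. Of 11 measured genes 4 were at least 2-fold higher and 0 lower in engineered MSC than in PBS cells, with a median log2 ratio of 0.84, which was 0.17 with the rule on 2000 UMIs. In native MSC against PBS cells 1 was higher and 0 lower, with a median of 0.47. Over all genes 10.4% were higher and 6.24% lower (engineered MSC), and 5.7% and 6.27% (native MSC). Hmox1, the inducible haem oxygenase, stood at 3982 CPM in engineered MSC, 2272 CPM in native MSC and 1372 CPM in PBS cells, 2.90 times (2.77 to 3.04) and 1.66 times (1.60 to 1.72) the PBS level. Slc40a1, the iron exporter ferroportin, stood at 188, 62.9 and 27.9 CPM, 6.72 times (5.10 to 8.90) and 2.25 times (1.75 to 2.92) the PBS level. Gclm, which takes part in glutathione synthesis, stood at 337, 173 and 112 CPM, and Prdx1, a peroxiredoxin, at 2439, 1553 and 1255 CPM. The engineered MSC ratios under the rule on 2000 UMIs were 1.13 for Hmox1, 2.63 for Slc40a1, 1.03 for Gclm and 1.12 for Prdx1, beside 2.90, 6.72, 3.01 and 1.94 as reported. With each cell counted alike the Slc40a1 ratio was 4.24.

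Repair and macrophage genes showed no common direction. Spp1, osteopontin, which marks lipid- and scar-associated macrophages, stood at 4468 CPM in engineered MSC, 3371 CPM in native MSC and 1097 CPM in PBS cells. It is also a gene of bile duct cells, and the engineered MSC ratio of 4.07 was 1.85 with mixed barcodes left out and 6.35 with no C1q allowed, while the native MSC ratio of 3.07 was 3.23 with mixed barcodes left out. Markers of bile duct cells summed to 523, 20.3 and 3.37 CPM. Arg1, the arginase of repair macrophages and of hepatocytes, stood at 510, 509 and 232 CPM, and its engineered MSC ratio of 2.20 was 0.488, below equality, with the rule on 2000 UMIs. Ctsl, a lysosomal protease, stood at 1235, 1211 and 473 CPM, 2.61 times (2.41 to 2.84) and 2.56 times (2.42 to 2.72) the PBS level. Of 16 genes of macrophage differentiation, 4 were at least 2-fold higher and 4 lower in engineered MSC than in PBS cells. In native MSC against PBS cells 1 was higher and 3 lower. For all genes the shares were 10.4% and 6.24% (engineered MSC), and 5.7% and 6.27% (native MSC). Nr1h3, which encodes the oxysterol receptor LXR-alpha, stood at 10.2, 22 and 77.4 CPM, 7.63-fold (3.81 to 17.9) and 3.52-fold (2.76 to 4.53) lower than PBS, and Axl, a receptor for dying cells, at 36.8, 34.1 and 97.6 CPM. The engineered MSC ratio for Nr1h3, 0.131, was 0.0715 with the rule on 2000 UMIs, that for Axl, 0.377, was 0.231 with mixed barcodes left out, and the native MSC ratio for Axl, 0.350, was 0.232 with no C1q allowed. Markers of Kupffer cells, the resident macrophages of the liver, moved with these genes. They summed to 50.7 CPM in engineered MSC, 28.3 CPM in native MSC and 130 CPM in PBS cells, and of 5 measured markers 2 (engineered MSC) and 4 (native MSC) were at least 2-fold lower than in PBS cells, with median log2 ratios of -0.82 and -2.99. Their part in these differences was not tested.

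The interferon response genes were lower in both MSC libraries, with few counts per gene. Of 13 measured genes 6 were at least 2-fold lower and 0 higher in engineered MSC than in PBS cells, and 10 lower and 0 higher in native MSC than in PBS cells. The median log2 ratio was -0.86 and -1.58, with ranges over the settings from -2.10 to -0.31 and from -1.71 to -0.35. Of all genes, 6.24% and 6.27% were at least 2-fold lower, and 10.4% and 5.7% higher. Isg15, a ubiquitin-like protein, stood at 62.1 CPM in engineered MSC, 62.2 CPM in native MSC and 125 CPM in PBS cells, 2.01-fold lower in both (1.49 to 2.77 and 1.71 to 2.36). Rsad2, the antiviral protein viperin, stood at 40.6, 27.6 and 82.5 CPM. Ifit1, which binds viral RNA, had 11, 24 and 54 UMIs, or 13.9, 5.61 and 18.2 CPM, and its relative Ifit2 stood at 5.07, 3.27 and 22.2 CPM. Single settings moved these genes. With no C1q allowed Rsad2 was 1.94 times (engineered MSC) and 1.01 times (native MSC) its PBS level, above equality, and Isg15 0.759 and 0.834 times. With the rule on 2000 UMIs the native MSC ratios were 1.05 for Rsad2, 1.09 for Ifit1, 0.749 for Isg15 and 0.643 for Ifit2, and the engineered MSC ratios were 0.133, 0.397 and 0.231 for Rsad2, Ifit1 and Isg15. With Scrublet doublets removed the engineered MSC ratios were 0.233 for Isg15, 0.142 for Rsad2 and 0.0356 for Ifit1. With each gene's richest barcode left out of each library Rsad2 was at 0.290 and Ifit1 at 0.298 in engineered MSC cells. Without mixed barcodes Ifit1 was at 0.278.

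Of 20 transcription factors 7 were at least 2-fold lower and 0 higher in engineered MSC than in PBS cells, and 3 lower and 0 higher in native MSC than in PBS cells. The shares of all genes were 6.24% lower and 10.4% higher (engineered MSC), and 6.27% and 5.7% (native MSC). Bach2, a repressor best known from lymphocytes, stood at 73.6 CPM in engineered MSC, 82.3 CPM in native MSC and 281 CPM in PBS cells, 3.82-fold (2.93 to 5.08) and 3.41-fold (3.01 to 3.88) lower than PBS. Nr4a1, a nuclear receptor needed by patrolling monocytes, stood at 339, 397 and 678 CPM, and its engineered MSC ratio of 0.499 was 0.762 with the rule on 2000 UMIs. Irf8, a factor of the monocyte lineage, stood at 193, 152 and 348 CPM, and Bach1, a repressor of Hmox1, at 137, 130 and 263 CPM. Nfe2l2, which encodes Nrf2, an activator of Hmox1 and Gclm, stood at 233, 305 and 472 CPM, below PBS, where Hmox1 and Gclm stood above it. Among receptors for microbes and debris, Clec4n (dectin-2) stood at 369, 315 and 155 CPM and Clec7a (dectin-1) at 197, 277 and 500 CPM. Marco, a scavenger receptor of resident macrophages, had 1, 7 and 73 UMIs, and its native MSC ratio to PBS of 0.0666 was 1.13 with the rule on 2000 UMIs.

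Lists of signalling, hypoxia and Fc receptor genes had at most 1 member past 2-fold, and the cell cycle list had more. Of 16 genes around Gab1 signalling 0 were past 2-fold in engineered MSC and 1 in native MSC against PBS cells, with medians of -0.17 and -0.30, and of 17 genes of hypoxia and glycolysis 0 were past 2-fold in either comparison. The 5 Fc gamma receptor genes were within 2-fold. Beside these lists, 10.4% of all genes were at least 2-fold higher and 6.24% lower in engineered MSC than in PBS cells. For native MSC against PBS cells these shares were 5.7% and 6.27%. Hspa1a and Hspa1b, near-identical heat shock genes whose counts are uncertain one by one, stood at 143, 56.1 and 210 CPM and at 167, 51.4 and 219 CPM in engineered MSC, native MSC and PBS cells. Cell cycle genes were at least 2-fold higher for 6 of 10 in engineered MSC and 7 of 12 in native MSC than in PBS cells, beside 10.4% and 5.7% of all genes, with medians of 1.62 and 1.25. In the engineered MSC library 44 of 49 UMIs of Top2a, a topoisomerase of dividing cells, came from 1 barcode. The list's median there was 0.48 with each gene's richest barcode left out and 0.46 with the rule on 2000 UMIs. The native MSC median was 2.05 with that rule.

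**Figure D4:**
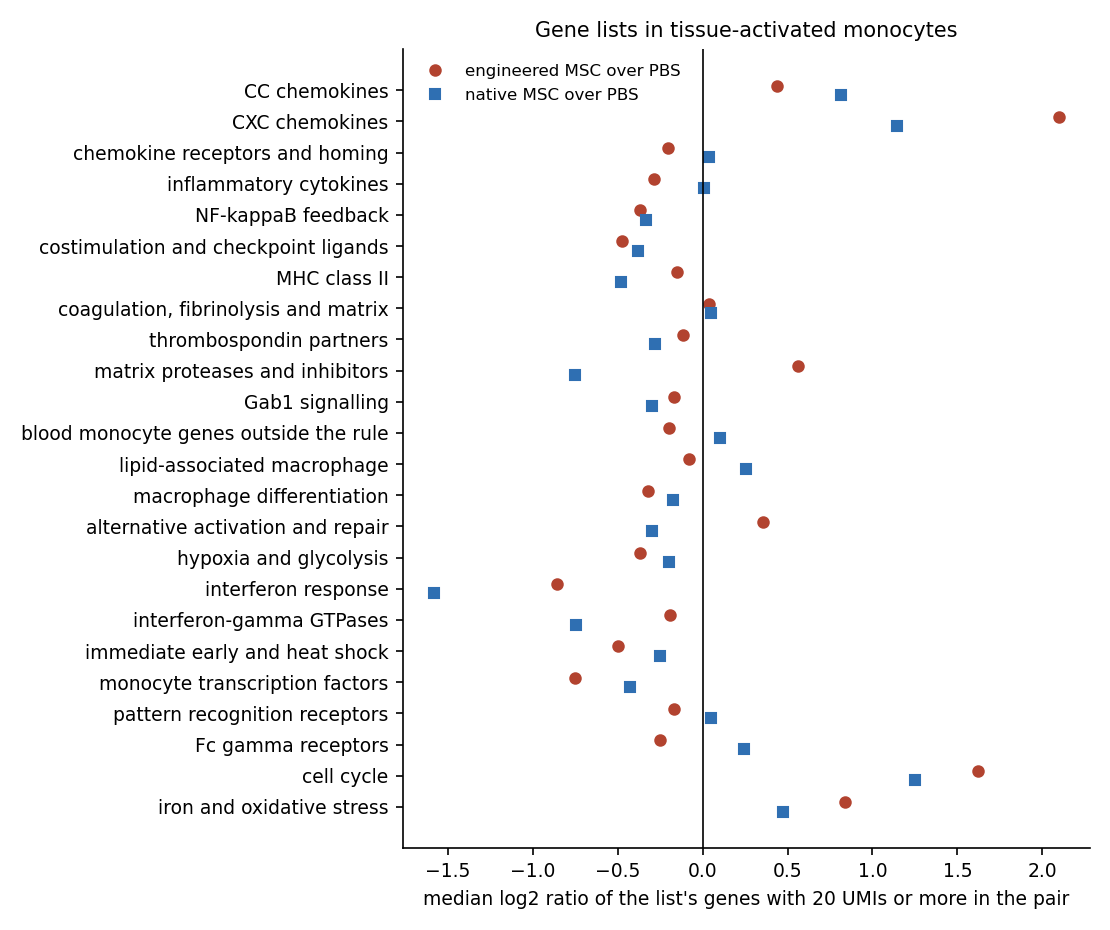
Median log2 ratio of 24 gene lists in tissue-activated cells, engineered MSC over PBS and native MSC over PBS, over list members with at least 20 UMIs. CXC chemokines stand at 2.10 (engineered MSC) and 1.14 (native MSC) and interferon response genes at -0.86 and -1.58.

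The genes with the largest counted differences from PBS were of 2 kinds. Those highest in the engineered MSC library were Sorbs2, Igfbp3, Retnlg, Pkhd1, Tspan8, Tm4sf4, Erbb4 and Clu, and for each of these 8 most UMIs came from 1 barcode. They are known from bile duct, stromal or neutrophil cells, and markers of such cells stood beside them. Stellate markers summed to 1167 CPM in engineered MSC, 83.0 CPM in native MSC and 94.6 CPM in PBS cells, and hepatocyte markers to 4723, 2256 and 211 CPM. With mixed barcodes left out Clu was 1.05 times its PBS level, against 74.2 as counted. Over all genes 395 were then at least 2-fold higher than in PBS cells, against 1003 as counted. Such ratios of the other named genes are not given here, and the part of such cells was not tested beyond leaving out mixed barcodes. Those highest in the native MSC library were Saa2, Saa1, Ppbp, Fgl1, Serpina1e, Mmp9, Serpina1b and Wfdc21, of which Saa1, Saa2, Fgl1 and the Serpina1 genes are liver secretory genes, and the near-identical Saa1 and Saa2 are uncertain one by one. Red cell markers in the native MSC cells summed to 5311 CPM, against 72.3 CPM in engineered MSC and 4.04 CPM in PBS cells.

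Among the 8 genes open to naming and furthest below PBS in each comparison, 0 had most of their UMIs in 1 barcode, although Cxcl10 came close with 89 of 182. In engineered MSC cells the 8 furthest below PBS were Plcl1, Acp5, Erdr1y, Bach2, Ptger4, Tgm2, Cx3cr1 and Kpna4. Acp5, a lysosomal phosphatase, stood at 20.3 CPM in engineered MSC, 61.5 CPM in native MSC and 137 CPM in PBS cells, and Ptger4, a receptor for prostaglandin E2, at 30.4, 43.0 and 131 CPM, 4.31-fold (2.85 to 6.81) and 3.05-fold (2.55 to 3.65) lower than PBS. Plcl1 stood at 16.5, 44.4 and 121 CPM. The engineered MSC ratios of 0.137 for Plcl1 and 0.148 for Acp5 were 0.316 and 0.295 with the rule on 2000 UMIs. In native MSC cells the 8 were Cxcl10, Mmp14, Hspa1b, Hes1, Erdr1y, Hspa1a, Bach2 and Hivep3, so Bach2 and Erdr1y stood in both sets. Both sets were taken against the same PBS library, and the overlap is given without a test. Between the MSC libraries, 11.2% of 10142 genes were at least 2-fold higher and 3.65% at least 2-fold lower in engineered MSC than in native MSC cells, 1139 and 370 genes. With the rule on 2000 UMIs these were 333 higher and 657 lower, so the balance turned, and with mixed barcodes left out 422 were higher. Lower in engineered MSC cells were Saa1, Saa2, Hamp, Fabp5, Slfn1, Fgl1, Ccl4 and Ccl3. Fabp5, a fatty acid carrier, stood at 200 CPM in engineered MSC and 634 CPM in native MSC cells.

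Set against blood-like monocytes of the same library, the tissue-activated cells held more transcripts of the chemokines Ccl7, Cxcl1, Cxcl2 and Cxcl3, of Pf4, Arg1 and Cd36, and fewer of Prtn3 and Ly6a2. The rule used counts of the same cells, so these values describe the 2 classes and are no test. Of 8106 genes with at least 20 UMIs in each library, 0.654% were at least 2-fold higher and 0.469% at least 2-fold lower in tissue-activated cells in all 3 libraries. Of the 8086 genes outside the rule, 51 (0.631%) were higher and 37 (0.458%) lower. Ccl7 led, at 35.4 (engineered MSC), 7.50 (native MSC) and 6.15 (PBS) times the blood-like level. Pf4 stood at 29.7, 9.08 and 3.04 times, Arg1 at 12, 5.66 and 2.95 times, Ccl24 at 5.05, 4.79 and 2.77 times and Cd36 at 2.90, 3.25 and 3.07 times. Cxcl1, Cxcl2, Cxcl3 and Cxcl16 were also past 2-fold in each library, and Cxcl3 stood at 504, 452 and 47.5 CPM in tissue-activated cells against 7.91, 53.3 and 1.45 CPM in blood-like cells.

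Further genes named by the same rule have varied roles. Emp1, a membrane protein, stood at 167, 183 and 146 CPM in tissue-activated cells against 22.7, 60.5 and 40.0 CPM in blood-like cells. Dab2, an endocytic adaptor of tissue macrophages, stood at 363, 397 and 214 CPM against 96.9, 87.6 and 64.4 CPM. Hilpda, a lipid droplet protein induced by hypoxia, stood at 364, 311 and 112 CPM against 51.4, 98.4 and 40.0 CPM. Sdc4, a heparan sulfate proteoglycan that binds thrombospondin 1, stood at 180, 76.0 and 93.9 CPM against 31.6, 15.6 and 37.4 CPM. Vegfa, the endothelial growth factor, stood at 2.16, 2.88 and 2.84 times its blood-like level. Slc7a11, the cystine transporter, and Areg, a growth factor, were past 2-fold in each library too, and Arhgap10, Basp1 and Zdhhc14 completed the 12 highest by the naming rule.

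On the side of the blood-like cells, Prtn3, a granule protease of young myeloid cells, stood at 25.4 CPM in engineered MSC, 51.0 CPM in native MSC and 16.1 CPM in PBS tissue-activated cells, against 502, 298 and 58.0 CPM in blood-like cells. Ly6a2 stood at 60.9, 54.7 and 46.1 CPM against 278, 212 and 148 CPM. Of the 16 further genes of blood monocytes 3 were at least 2-fold lower in all 3 libraries, Cd177 and Ly6a2 among them, and 0 higher, with a median log2 ratio of -0.77. Over all genes outside the rule 0.458% were lower and 0.631% higher, with a median of -0.02. MHC class II genes parted the libraries here. Their median log2 ratio of tissue-activated to blood-like cells was -0.28 in the engineered MSC, 2.37 in the native MSC and 0.34 in the PBS library. For H2-Aa the native MSC tissue-activated cells held 403 CPM against 56.5 CPM in blood-like cells, whereas the PBS cells held 533 CPM against 422 CPM.

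**Figure D5:**
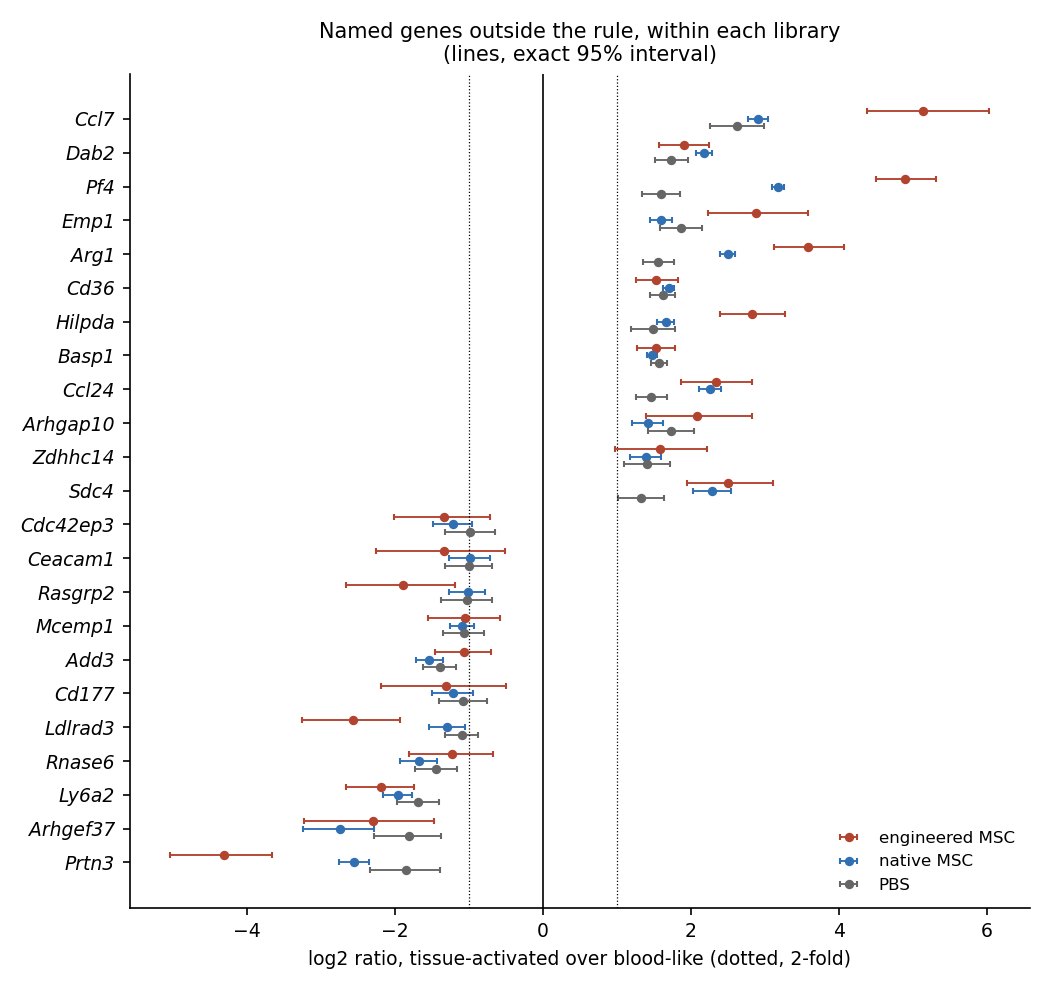
Log2 ratio of tissue-activated over blood-like monocytes for 23 genes, 12 higher and 11 lower, in each library, with dotted lines at 2-fold. Ccl7 and Pf4 spread widely between the libraries, at 35.4 and 29.7 times in engineered MSC and 6.15 and 3.04 times in PBS, whereas Cd36 stays between 2.90 and 3.25 times.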

How the data were processed

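The authors deposited a filtered 10x matrix for each library, whose values are whole counts of UMIs. Livers were dissociated at 37 °C, strained and freed of red cells, and libraries were made with Chromium 3' v3.1 chemistry, per the labels' protocols. Reads were handled with Cell Ranger 7.1.0 on GRCm39, per the submitters' processing notes. A barcode was kept if it had 200 genes or more, 500 UMIs or more and no more than 20% mitochondrial UMIs. Counts were summed over the member cells and scaled to CPM. The 95% intervals are exact Poisson for levels, conditional binomial for ratios and Clopper-Pearson for shares. A list member needed 20 UMIs in the pair, and 0.5 replaced a count of 0. Cells were thinned to 2000 UMIs for shares of cells with a gene. With 1 library per group there is no p-value.

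Alternatives were other cell filters, Scrublet removal (scanpy 1.11.5), a strict tie rule, the rule on thinned counts, no C1q allowed, other scalings and other count minimums. Mixed barcodes, with at least 0.5% of UMIs from 1 of 7 lists of other cells (platelets not among them), were left out as an alternative. Another left out, gene by gene, the barcode of each library richest in that gene. In such ratios of Ccl2, Ccl7, Cxcl1 and Cxcl10 the totals were kept, and elsewhere they lost the same UMIs. Both alternatives were chosen after seeing the data. The members and lists were chosen with earlier results of these data known. Genes named between libraries are the 8 in each direction with the interval bound furthest from equality, beyond 1.5-fold, with at least 50 UMIs and 50 CPM. Their CPM in the member cells of the higher library was also at least 0.5 times that in its other kept cells. Genes named against blood-like cells are the 12 in each direction with the largest smallest ratio over the 3 libraries, and list members were named up to 4 by size. The sets of 8 and 12 could not hold mitochondrial, ribosomal protein, haemoglobin, immunoglobulin, hepatocyte-list, sex-linked or unnamed predicted genes. Some genes that these rules select are not reported here. Genes outside these rules were named after their values were seen. The steps were tested on simulated data, and run with Python 3.11.15, numpy 2.4.6, scipy 1.17.1 and pandas 2.3.3.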

Additional observations from a re-analysis of the deposited data

Results flagged for a closer look

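Among genes of the lists other than markers of other cell types, with at least 20 UMIs in each library, Cxcl10 was the 1 gene that was more than 2-fold apart in opposite directions. It stood lower in tissue-activated than in blood-like monocytes in both MSC libraries and higher in the PBS library. On the log2 scale the ratio of tissue-activated to blood-like cells was -1.36 in the engineered MSC, -1.21 in the native MSC and 1.74 in the PBS library. In the PBS library 89 of 182 Cxcl10 UMIs of tissue-activated cells came from 1 barcode. The difference between the libraries was not tested, since each group was 1 library.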

How the results depend on the processing

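Limits on genes or mitochondrial share and strict ties left each share within its interval and each count of cells, genes or list members within 1.5 times. Equal weight per cell, median-of-ratios scaling and totals without free RNA cannot change shares or cell counts. They left each count of genes or list members within 1.5 times. Single gene ratios and list medians moved past set limits in 71 cases with equal weight per cell. Such cases numbered 70 with median-of-ratios scaling, 12 with strict ties and 1 with the mitochondrial limit. The rule on 2000 UMIs gave the most, 198, with 9 more that turned direction and 216 that stayed within the limits. With no C1q allowed 146 moved and 2 more turned. Without mixed barcodes 103 moved, without each gene's richest barcode 43, and with Scrublet removal 37. Median-of-ratios scaling put the median of all genes in native MSC against PBS cells at -0.01, beside -0.16. The rule on 2000 UMIs gave log2 share ratios to PBS of -3.54 (engineered MSC) and -0.79 (native MSC), 35 and 263 cells, 356 genes higher and 1231 lower in engineered MSC than in PBS cells, 359 higher in native MSC than in PBS cells, 333 and 657 between the MSC libraries, and 17 and 16 against blood-like cells. List members were then 21 higher (engineered MSC against PBS), 7 higher and 35 lower (engineered against native MSC) and 13 higher against blood-like cells. With no C1q allowed the share ratios were -1.18, 0.77 and, between the MSC libraries, -1.95, with 185 native MSC and 111 PBS cells, 597 and 395 genes (engineered MSC against PBS), 399 lower (native MSC against PBS) and 729 higher (engineered against native MSC). With no minimum of UMIs, 4250 and 1325, 2282 and 2925, 5774 and 879, and 201 and 121 genes were past 2-fold in the same order of comparisons, and with at least 50 UMIs 418 and 375, 321 and 355, 466 and 186, and 19 lower against blood-like cells. Scrublet removal left 10 list members lower against blood-like cells. Without mixed barcodes the engineered MSC share ratio to PBS was -3.07, 395, 369 and 422 genes were higher, and 19 list members were higher between the MSC libraries. Without each gene's richest barcode 625 genes (engineered MSC against PBS) and 674 (engineered against native MSC) were higher, with 29 list members higher, and 18 higher and 18 lower. As reported, the counts were 1003 and 602, 607 and 667, 1139 and 370, and 53 and 38 genes. Turned directions are listed only for named genes at least 2-fold apart as counted, and genes with smaller gaps also changed sign. Cxcl10 in engineered MSC against PBS cells, for instance, went from log2 -0.31 to 0.87 under the rule on 2000 UMIs. Under that rule directions turned for Ccl7 (-0.33) and Arg1 (-1.04) in engineered MSC against PBS cells. In native MSC against PBS cells they turned for Cxcl10 (1.36), Marco (0.18), Rsad2 (0.077) and Ifit1 (0.12). For Cxcl10 (-0.50), Ifit1 (-1.45) and Plcl1 (0.14) they turned between the MSC libraries. With no C1q allowed directions turned for Rsad2 (0.96 engineered MSC, 0.017 native MSC). Between the MSC libraries they turned for Ifit1 without mixed barcodes (-0.13) and without the barcode richest in it (-0.15). The cause was not tested. No paired analysis was possible because each group has 1 library. The engineered MSC values rested on the fewest cells and summed UMIs, 69 and 788524, though its median of 10360 UMIs per cell was the highest.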

Other observations

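Few cells carried most of the UMIs of Spp1 and Arg1. The tenth of tissue-activated cells richest in Spp1 held 84.7% of its UMIs in the engineered MSC, 77.5% in the native MSC and 71.8% in the PBS library, and for Arg1 these shares were 91.0%, 86.9% and 86.5%. Cells with Ccl2 held Spp1 more often at 2000 UMIs, in 60.7% of cells with Ccl2 and 28.2% without it in the engineered MSC, 63.5% and 51.6% in the native MSC, and 56.6% and 41.0% in the PBS library. Cx3cr1 did not follow Ccl2. It was found in 10.7% of cells with Ccl2 and 10.3% without it in the engineered MSC, 10.3% and 10.9% in the native MSC, and 30.8% and 34.0% in the PBS library. Macrophages with C1q counts of at least 10 held Ccl2 at 630, 754 and 308 CPM and Pf4 at 1509, 1761 and 524 CPM in the engineered MSC, native MSC and PBS libraries.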
